A study of Mus musculus with 8 samples.

Results

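The 9 genes described here are a small panel of the interferon response and of antigen display by MHC class I: Stat2, Irf9 and Irf7, which encode transcription factors of type I interferon signalling; Ifit3, Usp18 and Bst2, which encode effectors and a brake of that response; and B2m, H2-K1 and H2-D1, which encode the light chain and the classical heavy chains of MHC class I. They were taken by name from the table of counts, and each was represented by its transcript row of highest total count. All 9 had a row, and all 9 were among the 15000 genes tested, out of 15285 genes in the table. The samples were ventral midbrain of mice on a mixed FVB:C57BL/6J background. There were 4 samples of genotype Ercc1 delta/+, which carry a mutant allele of the repair gene Ercc1 beside a normal one, and 4 wild type samples; no treatment is given for either, and the labels give neither age nor sex. Whether the samples of a group came from separate animals is not stated in the labels, and p-values measure only the spread among these samples, which may be technical. Nor do the labels tell how the delta allele alters the Ercc1 transcript. The tissue was homogenised whole, so fewer cells of a type and less RNA per cell cannot be told apart.

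Type I interferons act through a cell surface receptor whose kinases phosphorylate STAT2. It acts with IRF9 in the complex ISGF3, which binds interferon-stimulated response elements in the promoters of its target genes. IRF7 amplifies interferon production, USP18 restrains signalling at the receptor, IFIT3 takes part in recognition of foreign RNA, and BST2 tethers budding virus particles to the cell surface. MHC class I molecules, a heavy chain paired with β2-microglobulin, present peptides to CD8 T cells. In healthy brain they are found mainly on endothelium and microglia and at low level on neurons. Interferon signalling in the brain is of interest in DNA repair deficiency because DNA that reaches the cytosol can be sensed and can start it.

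The promoter sequences were searched for letters that match the interferon-stimulated response element near a start site. They also show how alike the control regions of both class I heavy chain genes are. Promoters of 300 bases, from 250 before to 50 after a start site, were taken from RefSeq for the build GRCm38.p6, and 8 of the 9 genes had an entry; Usp18 is named only. The response element was searched on both strands as GAAA, any 2 bases and GAAA, and sites outside these windows were not searched. It occurred in the promoters of Ifit3, Bst2, Stat2 and B2m, and in 3.44% of all 32851 promoters. In the lines that follow, capitals mark this element in the sense strand of each gene, and all bases shown lie before the start site.
Ifit3, chr19:34583358-34583431, plus strand: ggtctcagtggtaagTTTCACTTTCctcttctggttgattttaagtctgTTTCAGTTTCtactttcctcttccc
Bst2, chr8:71537572-71537617, minus strand: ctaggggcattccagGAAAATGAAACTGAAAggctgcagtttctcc
Stat2, chr10:128270261-128270300, plus strand: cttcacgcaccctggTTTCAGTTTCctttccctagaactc
B2m, chr2:122147533-122147572, plus strand: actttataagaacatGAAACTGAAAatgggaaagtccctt

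Ifit3 and Bst2 each held the element 2 times, and in Bst2 the copies overlapped in a run of GAAA repeats. Stat2 and B2m held it 1 time. Irf7 and Irf9 did not have it in these windows.

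The H2-K1 and H2-D1 promoters held a kappa B site, which binds NF-κB and is the first run of capitals in both lines, and after it a shorter form of the interferon element, GAANNGAAA (TTTCNNTTC on the other strand). The kappa B site was searched on both strands only as the exact letters of that first run of capitals, with no free position. That form occurred in 0.107% of all promoters, and other forms of the site were not searched, so the share with any kappa B site is not known. The shorter element, which has free positions, occurred in 7.52%. In Stat2 the shorter element also occurred and overlapped the longer element. Capitals mark the kappa B site and the shorter element.
H2-K1, chr17:34000409-34000478, minus strand: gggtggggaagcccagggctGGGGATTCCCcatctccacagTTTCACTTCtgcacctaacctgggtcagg
H2-D1, chr17:35262903-35262972, plus strand: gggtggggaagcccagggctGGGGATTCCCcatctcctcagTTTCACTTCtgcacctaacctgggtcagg

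Of these 70 bases 69 were identical between both genes. The difference was A38T, counted from 1 at the 5′ end of the stretch with H2-K1 first, and it lay between the motifs. A match to a motif is a description of the letters and not evidence of binding in this tissue.

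Libraries differed in depth and in tissue content. Totals ran from 18271978 to 31204701 counts, at which 3 counts correspond to 0.164 to 0.0961 CPM (counts scaled to a common library size). The 4 libraries of lowest total were mutant replicates 1, 2 and 4 and wild type replicate 2, so depth and genotype overlap. Ercc1 itself had 14.6 ± 0.724 CPM in wild type libraries against 11.5 ± 1.17 CPM in mutant ones (mean and SD of 4 each). Every mutant library lay below every wild type library, as in 6.86% of all genes. The edgeR quasi-likelihood adjusted p of Ercc1 was 0.114, and it was under 0.05 in 1 of 20 alternative fits, DESeq2 (0.0388). In the authors' deposited table the adjusted p of Ercc1 was 0.320. Summed choroid plexus markers reached 1160 CPM in mutant replicate 3, against 65.3 to 484 CPM in the other libraries. Of all genes, 7 passed the edgeR quasi-likelihood test at an adjusted p of 0.05, and this count was 320 without mutant replicate 2 and 0 without mutant replicate 4. The other leave-one-out counts were 3 and 1 without mutant replicates 1 and 3, 2 without wild type replicate 1, and 1 without each other wild type replicate. In all 8 of these fits 0 of the 9 genes passed.

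Levels of the 9 genes spanned a wide range in midbrain. Divided by transcript length, B2m stood highest, with 70.1 ± 7.24 CPM per kilobase (SD over the 8 libraries), at the 93.6 percentile of the genes tested that had a length. H2-D1 followed with 36.7 ± 2.81 and H2-K1 with 20.3 ± 1.88 CPM per kilobase, and the ranges of these 3 genes over the 8 libraries did not overlap. The light chain gene exceeded each heavy chain gene in every library on this scale.

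Below the class I genes came the interferon genes. Stat2 had 7.79 ± 0.817, Ifit3 6.15 ± 1.05, Irf9 4.96 ± 0.816 and Bst2 3.38 ± 0.628 CPM per kilobase, and neighbours in this order of 4 overlapped. Irf7, at 1.08 ± 0.199, and Usp18, at 0.503 ± 0.140 CPM per kilobase, were separate from the rest and from each other, at the 13.4 and 6.71 percentiles. Usp18 rested on 11 to 35 counts and Irf7 on 37 to 65 counts per library, so counting error weighs most on these.

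**Figure D1:**
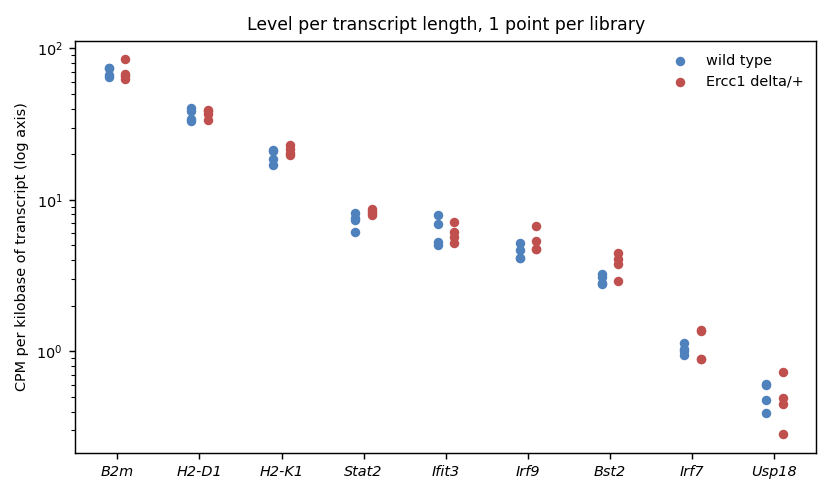
Level of each of the 9 genes in CPM per kilobase of transcript (log axis), 1 point per library, wild type in blue and Ercc1 delta/+ in red, ordered by mean. B2m, H2-D1 and H2-K1 lie apart at the top and Irf7 and Usp18 apart at the bottom, while the 4 genes between overlap with their neighbours.

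The main comparison asked whether these genes differ when an allele of Ercc1 is mutant. None of the 9 passed the edgeR quasi-likelihood test at an adjusted p of 0.05, in either direction, and adjusted p-values ran from 0.301 (Stat2) to 0.995 (B2m). Over all 15000 genes, 7 passed (0.0467%), 2 higher (0.0133%) and 5 lower (0.0333%). At an unadjusted p of 0.05, 0 of the 9 passed, where 18.6% of all genes did. That 0 was not stable: it was 2 (B2m and Bst2) with the length and GC correction, where 1653 of the 15000 genes passed. It was 1 with a depth term (Stat2), where 2378 of 15000 passed, and without mutant replicate 4 (Bst2), where 2105 of 15093 passed. It was also 1 without wild type replicate 3 (Stat2), where 2018 of 15015 passed, and with replicate number as a block (Irf9), where 2927 of 15000 passed. The groups overlapped for all 9, where they did not overlap for 12% of all genes (5.18% higher and 6.86% lower in mutants). The log2 fold change was positive for 6 and negative for 3 (7 positive with RLE scaling and 5 with upper-quartile scaling), with a median of 0.12, and 49.5% of all genes were positive, with a median of -0.0027.

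The 95% intervals of the fold change in the edgeR quasi-likelihood fit, which are not adjusted for the number of genes, included a fold change of 1 for all 9 and stayed inside a 2-fold change in either direction for all 9. For 6 of them (Stat2, Irf9, Ifit3, B2m, H2-K1 and H2-D1) the interval also stayed inside 1.5-fold. The widest were those of Usp18, from 0.586 to 1.51 times wild type, and Irf7, from -0.34 to 0.59 on the log2 scale, and the highest upper bound was that of Bst2, from 0.973 to 1.65 times. These intervals cover the spread between libraries and not the processing: correcting each library for its trend over transcript length and GC content moved B2m, the most abundant of the 9 per length, to a log2 fold change of 0.35, outside its interval of -0.23 to 0.22, and Bst2 to 0.55.

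**Figure D2:**
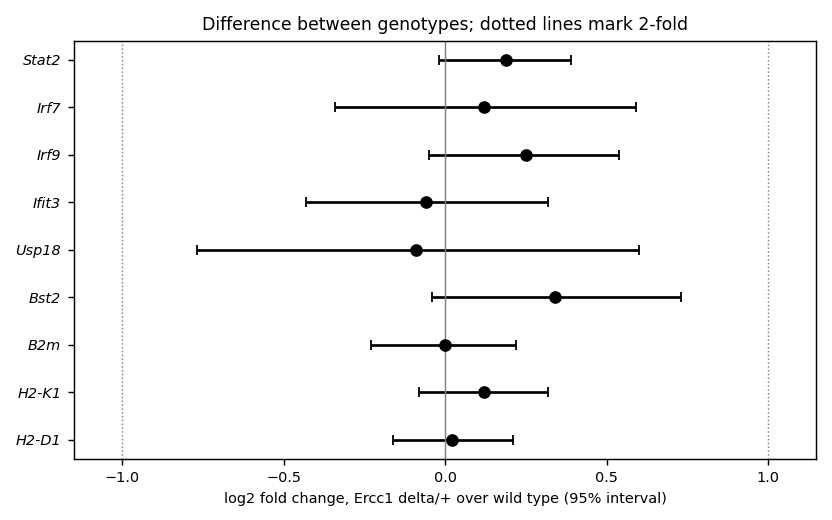
Log2 fold change of each of the 9 genes in Ercc1 delta/+ over wild type (x axis), with its 95% interval from the edgeR quasi-likelihood fit of 4 and 4 libraries. Every interval crosses 0 and none reaches the dotted lines at a 2-fold change.

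Among the transcription factors, Stat2, the subunit of ISGF3 that activates transcription, had 34.8, 37.0, 38.3 and 35.8 CPM in Ercc1 delta/+ replicates 1 to 4. The wild type replicates 1 to 4 had 32.1, 26.8, 35.7 and 33.4 CPM. Mutant replicates 2, 3 and 4 lay above every wild type library, and mutant replicate 1 lay below wild type replicate 3. The log2 fold change was 0.19 (SE 0.09, adjusted p = 0.301), and with depth as a term in the fit it was 0.30 (adjusted p = 0.172).

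Irf9, the DNA-binding subunit of ISGF3, had 14.1, 13.9, 15.9 and 19.8 CPM in mutant replicates 1 to 4 and 13.8, 12.3, 12.3 and 15.3 CPM in wild type replicates 1 to 4. Mutant replicate 4 was the highest of all, and without it the log2 fold change was 0.13, against 0.25 (SE 0.13) with all libraries (adjusted p = 0.348). The other transcript rows of Irf9 had nearly the same totals over the 8 libraries, 2808 (NM_008394) and 2671 (NM_001159418) counts against 2842 in the row used (NM_001159417). Their log2 fold changes were 0.24 and 0.23, and rows of 1 gene are not independent.

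Irf7, whose product amplifies the interferon response and is itself strongly induced by it, had 2.60, 2.66, 1.70 and 1.69 CPM in mutant replicates 1 to 4. In wild type replicates 1 to 4 it had 1.81, 2.18, 1.93 and 1.98 CPM. The mutant libraries split into replicates 1 and 2, above every wild type library, and replicates 3 and 4, below every wild type library. Its log2 fold change was 0.12 (SE 0.21, adjusted p = 0.785), and leaving out mutant replicate 1, 2, 3 or 4 gave 0.02, 0.01, 0.23 and 0.22, in that order.

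Of the effectors, Ifit3 had 9.94, 10.7, 12.4 and 9.06 CPM in mutant replicates 1 to 4 and 8.73, 12, 9.21 and 13.8 CPM in wild type replicates 1 to 4. The mutant values all lay inside the wild type range. The log2 fold change was -0.06 (SE 0.17, adjusted p = 0.892). Ifit3b, a near-identical neighbour of Ifit3, had -0.13 (SE 0.15). Both are uncertain, since the treatment of reads that match both is not stated in the labels.

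Usp18, which encodes the protease that removes ISG15 from proteins and binds the interferon receptor, had 1.30, 0.793, 0.869 and 0.503 CPM in mutant replicates 1 to 4 (28, 14, 24 and 11 counts). Wild type replicates 1 to 4 had 0.695, 0.842, 1.06 and 1.07 CPM (18, 17, 27 and 35 counts). The highest and the lowest library were both mutant. The log2 fold change was -0.09 (SE 0.30, adjusted p = 0.910), and it was -0.34 without mutant replicate 1 and 0.10 without mutant replicate 4.

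Bst2, also known as tetherin, had the largest estimate of the 9. Mutant replicates 1 to 4 had 2.97, 3.51, 3.22 and 2.29 CPM, and wild type replicates 1 to 4 had 2.20, 2.23, 2.56 and 2.44 CPM. Mutant replicates 1, 2 and 3 lay above every wild type library, and mutant replicate 4 lay between wild type replicates 2 and 4. The log2 fold change of 0.34 (SE 0.17), or 1.27-fold, did not pass the test (adjusted p = 0.312). Under the length and GC correction the adjusted p of Bst2 was 0.305.

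**Figure D3:**
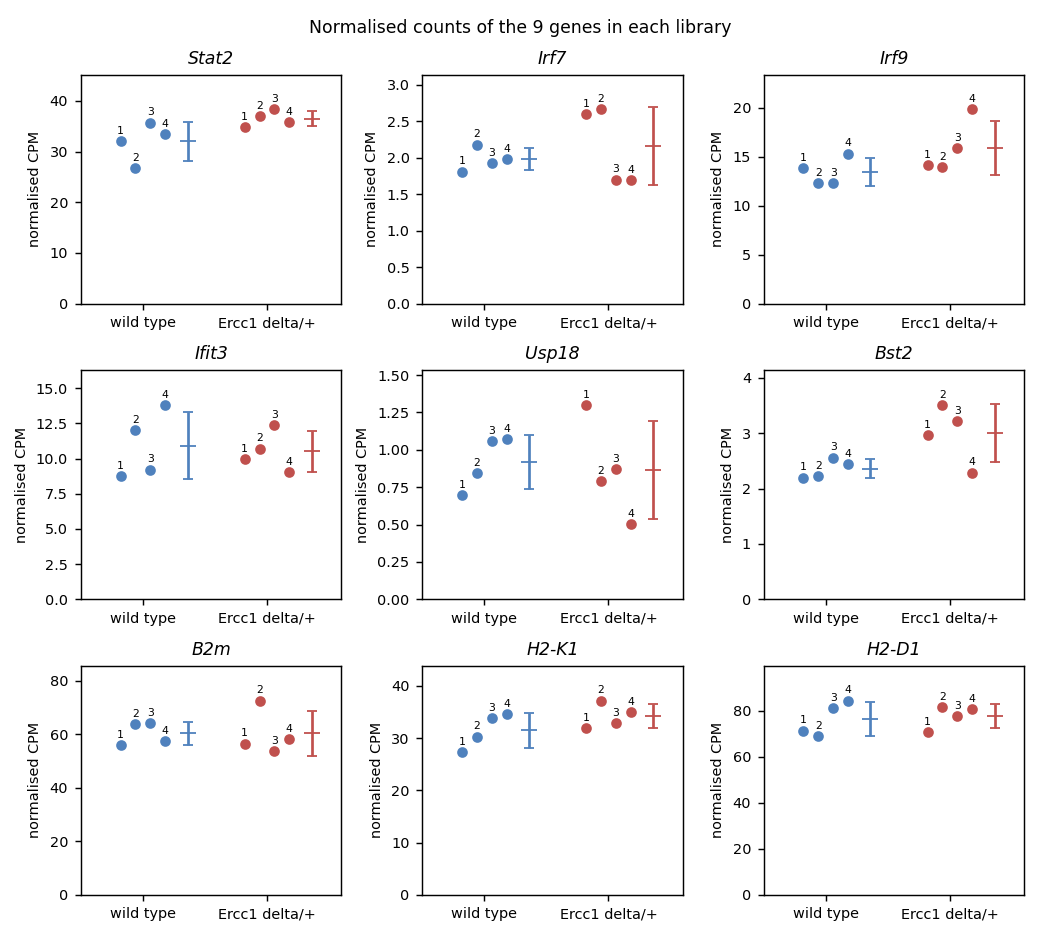
Normalised CPM of each of the 9 genes (y axis from 0) in the 4 wild type libraries (blue) and the 4 Ercc1 delta/+ libraries (red), numbered by replicate, with the mean and SD of each group at the right. In each panel the red and blue points overlap; Stat2 and Bst2 have 3 of 4 mutant libraries above the wild type range.

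Among the class I genes, B2m, which encodes β2-microglobulin, had 56.5, 72.6, 53.6 and 58.3 CPM in mutant replicates 1 to 4. In wild type replicates 1 to 4 it had 55.8, 63.9, 64.2 and 57.3 CPM. The means were equal to 3 digits, at 60.3 CPM, with mutant replicate 2 highest and mutant replicate 3 lowest. The 95% interval of the fold change ran from 0.853 to 1.17 (adjusted p = 0.995). B2m and Bst2 have the shortest transcripts of the 9, 860 and 792 bases, and B2m has the lowest GC content of the 9, 41.2% (Bst2 55.3%). Under the length and GC correction the log2 fold change of B2m was 0.35 (adjusted p = 0.223). The parts of length and of GC content in this value were not separated.

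H2-K1, a classical heavy chain gene, had 31.9, 37.2, 32.9 and 35.0 CPM in mutant replicates 1 to 4 and 27.3, 30.3, 33.8 and 34.6 CPM in wild type replicates 1 to 4. Only mutant replicates 2 and 4 exceeded every wild type library. Its log2 fold change was 0.12 (SE 0.09, adjusted p = 0.513). H2-D1, the other classical heavy chain gene, had 70.7, 81.7, 77.9 and 80.9 CPM in mutant replicates 1 to 4 and 71.4, 69.1, 81.2 and 84.5 CPM in wild type replicates 1 to 4. Every mutant value lay inside the wild type range, and the fold change was 1.02, with an interval from 0.893 to 1.16 (adjusted p = 0.914). Class I heavy chain genes are highly similar to each other and differ between FVB and C57BL/6J mice, and the labels do not state how such reads were counted, which leaves the levels of H2-K1 and H2-D1 uncertain.

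In the authors' deposited table the adjusted p of the 9 rows ran from 0.593 (Irf9) to 0.998 (B2m), and its largest log2 fold change among them was 0.33 (Bst2), where 1.86% of all 19931 rows had an adjusted p under 0.05.

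Over the 8 libraries the 9 genes were only loosely related. Of their 36 pairs 23 had a positive Pearson correlation of log2 CPM, and 0 passed an exact two-sided permutation test after Benjamini-Hochberg adjustment over the 36 (1 pair had an unadjusted p under 0.05 for Pearson's r). That pair was H2-K1 and H2-D1, with r = 0.81 (exact permutation p = 0.0108, adjusted 0.389) and rho = 0.81 (exact permutation p = 0.0218, adjusted 0.503). Without the 2 libraries farthest from the median of H2-K1, r was 0.94. H2-K1 and H2-D1 are highly similar, and the labels do not state how reads that fit both were counted. Class I heavy chain genes also differ between the strains of the mixed background. The part of shared reads or of strain differences in this correlation was not tested. Stat2 and Bst2 were under 0.05 by rank alone, with rho = 0.79 (exact permutation p = 0.0279, adjusted 0.503), r = 0.67 (exact permutation p = 0.0521, adjusted 0.743) and r = 0.62 without the 2 libraries farthest from the median of Stat2. Stat2 and Irf9, the subunits of ISGF3 on the panel, had r = 0.47 (exact permutation p = 0.237, adjusted 0.743) and rho = 0.50 (exact permutation p = 0.216, adjusted 0.762), and r was 0.08 without the 2 libraries farthest from the median of Stat2.

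The genes whose log2 CPM over the 8 libraries was most like that of a member, by Pearson correlation among genes of at least 1 CPM, give no test, since they are the highest of many. For H2-K1 they were Cxcl16 (0.982), a chemokine gene, Nfkb1 (0.960), which encodes an NF-κB subunit, and Ifitm2 (0.945), an interferon-induced gene. For H2-D1, whose promoter stretch is nearly identical, they were other genes, Asap3 (0.967), Zswim3 (0.963) and Lrsam1 (0.936). For Ifit3 the closest was its near copy Ifit3b (0.916). For B2m they were Macrod1 (0.958), Acta1 (0.958) and Gucd1 (0.957), and for Stat2 Tecpr1 (0.992), Kcnj8 (0.977) and Eif4g3 (0.965).

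The rest of the interferon pathway was read from the same fit. None of the 11 interferon ligand genes listed had a row, and the lowest total of any row was 31 counts; they are not analysed here. All 9 receptor and kinase genes were tested, 5 positive and 4 negative (median 0.06), and 0 passed the edgeR quasi-likelihood test (1 had an unadjusted p under 0.05). By the same test 9.03% of all genes were higher and 9.57% lower at an unadjusted p under 0.05. The receptor-associated kinase genes Tyk2 (log2 fold change 0.27, SE 0.11, adjusted p = 0.225) and Jak1 (0.18, SE 0.08, adjusted p = 0.293) had the smallest p-values. Over the 20 alternatives Tyk2 ran from 0.14, with the length and GC correction, to 0.40, with a depth term, and Jak1 from 0.11 to 0.22. Among 7 other STAT and IRF genes (5 positive, median 0.08) 0 passed, 1 had an unadjusted p under 0.05, and Irf2, which encodes a factor that competes at interferon response elements, had 0.19 (SE 0.08, adjusted p = 0.244). Of 10 genes listed as negative regulators of the pathway 8 were positive (median 0.14) and 0 passed. The list included Isg15, at 0.28 (SE 0.23, adjusted p = 0.536). Isg15 is itself an interferon-stimulated gene and was not counted among the other interferon-stimulated genes. An unadjusted p under 0.05 was found for 2 of the 10, each higher, where 9.03% of all genes were. The phosphatase gene Ptpn2 had 0.28 (SE 0.10, adjusted p = 0.203) and Socs1, a suppressor of JAK kinases, -0.38 (SE 0.23, adjusted p = 0.414).

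Other interferon-stimulated genes were measured in larger number. Of 69 on the list 63 had a row and 62 were tested, with 37 positive and 25 negative and a median of 0.05. By the edgeR quasi-likelihood test 0 passed, and 4 higher and 2 lower genes (of 62) had an unadjusted p under 0.05, where 9.03% and 9.57% of all genes did. Slfn5, a Schlafen family gene, had 15.6, 12.9, 11.3 and 12.1 CPM in mutant replicates 1 to 4 and 8.30, 9.46, 7.79 and 7.93 CPM in wild type replicates 1 to 4. Helz2, which encodes a helicase of the interferon response, had 12.6, 10.6, 10.4 and 12.9 CPM against 6.68, 6.79, 6.89 and 9.12 CPM. In both genes every mutant library lay above every wild type library, as in 4 of the 62 genes and 5.18% of all genes. Every mutant library lay below every wild type library in 1 of the 62 and in 6.86% of all genes. Their log2 fold changes were 0.63 (SE 0.12, adjusted p = 0.0630) and 0.65 (SE 0.13, adjusted p = 0.0664), and both missed the threshold. Both passed with DESeq2 (adjusted p = 0.000658 and 0.00138), where 1025 of 15000 genes passed. They also passed with the edgeR exact test (0.00355 and 0.00517), where 539 of 15000 passed. Each of them passed in only these 2 of the 20 alternatives. Under the length and GC correction Helz2 (10109 bases, GC content 56.1%) had 0.43 (adjusted p = 0.260) and Slfn5 (5979 bases, GC content 44.4%) 0.61 (adjusted p = 0.176). Slfn2 had 0.71 (SE 0.18, adjusted p = 0.0998), and Nmi, whose product binds STAT proteins, had -0.38 (SE 0.14, adjusted p = 0.195), from -0.43 to -0.15 over the 20 alternatives.

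The response element was present in the promoter of 23 of the 49 genes of that list with a RefSeq promoter (46.9%). Among the tested ones, the 22 with the element had a median log2 fold change of 0.04, from -0.53 to 0.63, and the 26 without it had a median of 0.14, from -0.53 to 0.71. For the 9-gene panel the medians were 0.09 for the 4 genes with the element and 0.12 for the 4 without. These are descriptions of lists and no difference between them was tested.

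The list of nucleic acid sensing held sensors and adaptors, which act ahead of interferon production. Samhd1, Rnaseh2a, Rnaseh2b and Rnaseh2c, which are not sensors, were also on it. The list gave 11 positive and 6 negative values among 17 tested (median 0.06). None passed the edgeR quasi-likelihood test, and 4 higher and 1 lower of the 17 had an unadjusted p under 0.05, where 9.03% and 9.57% of all genes did. Tlr7, an RNA receptor of endosomes, had a mean of 4.21 ± 0.356 CPM in the mutant group against 2.78 ± 0.754 CPM in the wild type group (SD of 4 libraries; log2 fold change 0.61, adjusted p = 0.156). The adaptor gene Traf3 had 0.36 (SE 0.11, adjusted p = 0.145) and passed in 1 of 20 alternatives, DESeq2 (adjusted p = 0.0484); over the 20 it ran from 0.19 to 0.45, with adjusted p up to 0.544. Trim56 had 0.35 (SE 0.13) and Rnaseh2b, which encodes a subunit of the enzyme that removes RNA from DNA hybrids, -0.39 (SE 0.13, adjusted p = 0.156). Over the 20 alternatives Trim56 ran from 0.18 to 0.41 and Rnaseh2b from -0.45 to -0.21.

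Among the 17 other class I heavy chain genes tested, 6 were positive and 11 negative (median -0.14). None passed the edgeR quasi-likelihood test. At an unadjusted p under 0.05, 1 of the 17 was higher, where 9.03% of all genes were. It was H2-T24, a nonclassical gene, at 0.37 (SE 0.15, adjusted p = 0.242). The nonclassical H2-T22 had -0.21 (SE 0.10) and Mr1, which presents microbial metabolites, -0.36 (SE 0.16, adjusted p = 0.269), and over the 20 alternatives they ran from -0.28 to -0.11 and from -0.47 to -0.22. In the peptide loading group 5 of 14 were positive (median -0.05) and 0 passed, with 2 lower genes of 14 at an unadjusted p under 0.05, near the 9.57% of all genes. These were Psme1 and Psme2, the subunits of the interferon-inducible proteasome activator PA28, at -0.35 (SE 0.11, adjusted p = 0.139) and -0.36 (SE 0.11, adjusted p = 0.143). Under the length and GC correction they had -0.21 and -0.18. The class II list held 12 tested genes, among them the regulator genes Ciita, Rfx5, Rfxap and Rfxank. Of the 12, 8 were positive (median 0.15), 0 passed and 0 had an unadjusted p under 0.05. The negative ones were Rfx5 (-0.23), H2-DMb1 (-0.12), Rfxank (-0.04) and Rfxap (-0.01). H2-Aa had 0.43 (SE 0.34) and its chaperone gene Cd74 0.35 (SE 0.27). Over the 20 alternatives they ran from 0.18 to 0.72 and from 0.11 to 0.53.

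**Figure D4:**
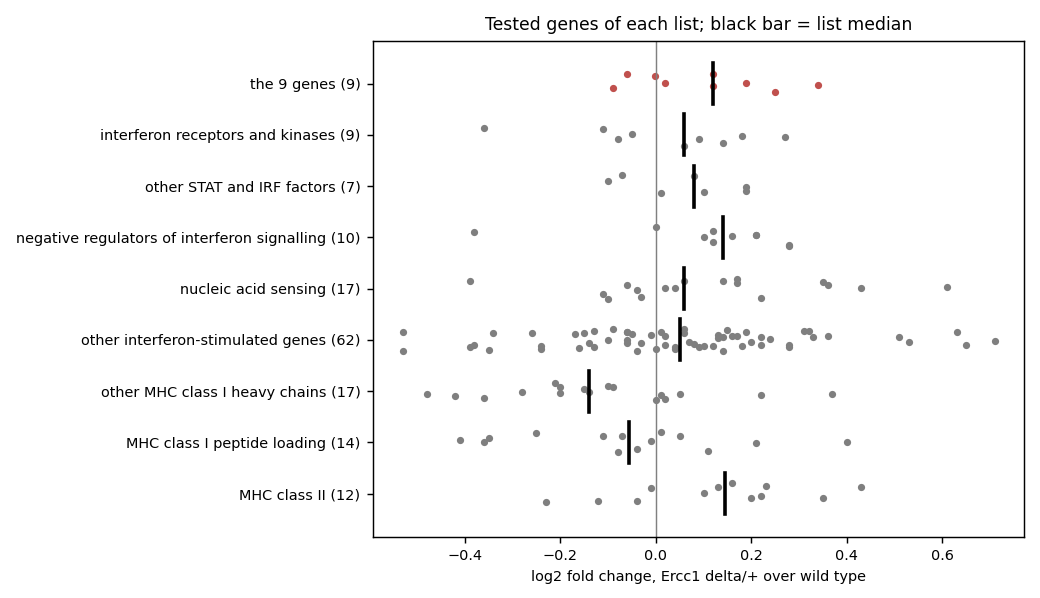
Log2 fold change in Ercc1 delta/+ over wild type (x axis) of each tested gene of the interferon and MHC lists (1 point per gene, number of genes in parentheses, black bar at the list median). Points of every list lie on both sides of 0, and the list medians run from -0.14 to 0.15.

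The cells that could hold these transcripts were checked with marker lists, of which 0 genes passed the edgeR quasi-likelihood test. The tissue carried the dopaminergic markers of ventral midbrain, all 10 of which were tested, with a summed level of 222 to 462 CPM in mutants, against 327 to 497 CPM in wild type. All 16 microglia markers were tested, and their sum ran from 496 to 572 CPM in mutants, against 433 to 634 CPM in wild type, with 8 positive and 8 negative log2 fold changes and 0 past the test. The sum of all 12 endothelial markers ran from 509 to 589 CPM in mutants, against 436 to 477 CPM in wild type, with no overlap. In the sum, that separation depended on Slc2a1, the glucose transporter gene (0.58, SE 0.09, adjusted p = 0.0504), which passed in 7 of 20 alternatives. Without it the sums were 325 to 410 CPM against 303 to 360 CPM and overlapped, while leaving out any other of the 12 kept them apart. Abundant markers weigh most in a sum. Flt1 had 0.43 (SE 0.09, adjusted p = 0.0664) and Esam 0.23 (SE 0.10, adjusted p = 0.251). For Slc2a1, Flt1 and Esam, 3 of the 12, every mutant library lay above every wild type library, where 5.18% of all genes did. The same 3 were higher at an unadjusted p under 0.05, where 9.03% of all genes were. Of the 12 markers 9 were positive, and Slco1a4 (-0.24), Tek (-0.11) and Cldn5 (-0.02) were negative. Of 9 markers of peripheral and border myeloid cells 6 were tested and 5 were positive (median 0.57), with sums of 28.0 to 37.7 CPM in mutants, against 23.3 to 28.8 CPM in wild type; Lyve1 had 1.38 (SE 0.30, adjusted p = 0.0707). All 10 choroid plexus markers were positive (median 1.80), with sums of 366, 484, 1160 and 77.4 CPM in mutant replicates 1 to 4 and 65.3 to 158 CPM in wild type. Of 14 lymphocyte markers 11, including Cd3e and Cd8a, had no row, and the sum of the others ran from 2.15 to 9.10 CPM in mutants, against 1.93 to 15.2 CPM in wild type. Blood markers summed to 151 to 235 CPM in mutants, against 237 to 320 CPM in wild type, with no overlap, and 102 to 156 CPM against 147 to 195 CPM, which overlap, without Hbb-b2. All 3 tested were negative (median -0.45). Median log2 fold changes were -0.03 for 9 astrocyte, -0.08 for 9 oligodendrocyte and 0.05 for 8 neuron markers. The part of these cells in the values of the 9 genes was not tested.

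**Figure D5:**
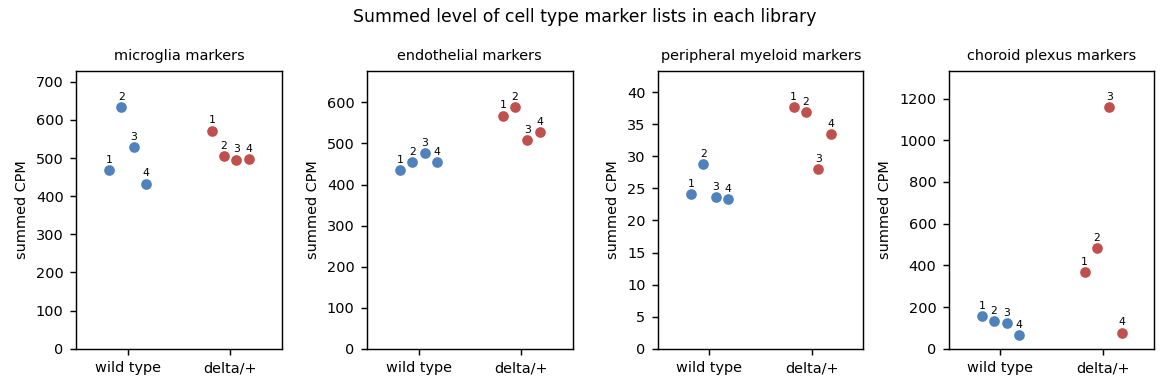
Summed normalised CPM of the tested markers of 4 cell type lists (y axes from 0) in each wild type (blue) and Ercc1 delta/+ (red) library, numbered by replicate. Microglia sums overlap between genotypes, endothelial sums do not (without Slc2a1 they do), and the choroid plexus sum is highest in mutant replicate 3 at 1160 CPM.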

How the data were processed

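RNA of 4 Ercc1 delta/+ and 4 wild type ventral midbrain samples was sequenced after poly(A) selection, on 1 shared lane per the labels' protocols. The submitters' processing notes name TopHat 1.3.1, edgeR and mm9. No label states the counting tool, nor how it treated strand or reads that fit several places. The authors deposited values of each sample for 19931 coding RefSeq rows, with their own log2 fold changes and p-values for mutant against wild type, per the file headers. The sample values were taken to be raw counts because the submitters' notes name edgeR. The lowest row total is 31 counts.

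Names, transcript length and GC content came from RefSeq GRCm38.p6 and GENCODE M21 (19600 rows matched, 331 kept by identifier); as the build differs from mm9, the only coordinates given are those of the RefSeq promoters. Each gene was read at its row of highest total, and merging 87 genes of identical counts left 15285. Counts were fitted with edgeR 4.0.16 in R 4.3.3 (TMM, filterByExpr, quasi-likelihood, two-sided, Benjamini-Hochberg over 15000 genes); the method was tested on simulated data. The SE is the log2 fold change divided by the root of F. Log2 CPM used a prior count of 2. Libraries of a group differed beyond sampling noise. Alternatives were 20, with DESeq2 1.42.0 and limma 3.58.1 among them. The 9 genes, the lists and the tests were chosen with earlier results of these data known. Genes named are the 9, Ercc1, up to 4 of smallest p per list (not all are given) and the 3 most correlated per member, of which some are given.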

Additional observations from a re-analysis of the deposited data

Results flagged for a closer look

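In 160 checks of a gene within a group of 4 libraries, 5 found 1 library far from the other 3; chance gives about 1 in 20 groups. None was among the 9 genes of the panel. Helz2 had 9.12 CPM in wild type replicate 4, against 6.68 to 6.89 CPM in the others, and Mr1 had 8.04 CPM in mutant replicate 3, against 6.04 to 6.27 CPM. Among cell type markers, Ddc, which encodes aromatic amino acid decarboxylase, had 82.5 CPM in wild type replicate 3, against 48.2 to 53.9 CPM. The astrocyte marker S100b had 220 CPM in mutant replicate 2, against 140 to 149 CPM, and the synaptic vesicle gene Syt1 had 828 CPM in wild type replicate 4, against 935 to 956 CPM.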

How the results depend on the processing

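In all 20 alternatives 0 of the 9 genes passed the threshold (by DESeq2, 0 of 8 with an adjusted p), and the lowest adjusted p was 0.172 (Stat2, depth term). Stat2, Irf9, Bst2 and H2-K1 stayed positive in all 20. Irf7 was -0.04 with a depth term. Ifit3 was 0.05 with the length and GC offset and ran from -0.15 to 0.08 when each library was left out in turn. Usp18 ran from -0.34 to 0.10, B2m from -0.10 to 0.05 and H2-D1 from -0.02 to 0.07 in the same way; the mean filter of 1 CPM removed Usp18. B2m was 0.00 with RLE scaling and with DESeq2 and 0.35 with the length and GC offset, and H2-D1 was -0.0026 with upper-quartile scaling. The cause of these changes of sign was not tested.

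The count of 7 genes called was 33 with RLE scaling, 86 with upper-quartile scaling, 50 with the 1 CPM filter, 1025 with DESeq2 (496 higher, 529 lower), 539 with the edgeR exact test (238 higher, 301 lower), 52 with limma-voom, 4 with every transcript row, 1 with the length and GC offset, 1 with the depth term and 0 to 320 with each library left out. With the replicate block it was 0 (2927 genes at an unadjusted p under 0.05, 1 of the 9 among them, Irf9). Same-numbered samples correlated from -0.275 to 0.262 and 1 of 4 mutant samples correlated best with its own number. This gave no sign that the numbers pair the samples, but so few correlations cannot exclude a weak pairing. Depth limits Usp18, Irf7 and Bst2 most, at 11 to 89 counts per library. Leaving out each endothelial and blood marker in turn was chosen after seeing the data.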
